A study of Mus musculus with 32 samples.

Results

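The genes described here are 10 markers of injury to the kidney tubule: Havcr1, Lcn2, Krt20, Krt18, Clu, Spp1, Timp1, Sox9, Hbegf and Vgf. They were taken by name, with earlier results of these data known, and make up 10 of the 25059 genes counted by RNA-seq. All 10 were found in the Damage-seq and XR-seq files as well. Wild-type C57BL/6J female mice, 6 to 7 months old, received 1 intraperitoneal injection of cisplatin at 10 mg per kg, and control mice received the same volume of saline. Kidney, liver, lung and spleen were taken. The sample labels give 2 h after treatment, whereas the protocols describe injection at ZT1 and collection at ZT5, which is 4 h. RNA-seq covered 2 control and 2 cisplatin libraries of each organ, 16 in all, and Damage-seq and XR-seq covered 2 libraries of each organ from cisplatin-treated mice, 8 each, with no libraries from control mice analysed here.

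When tubule epithelial cells are damaged, they lose transport functions and switch on genes of repair and dedifferentiation. Havcr1 encodes the shed membrane protein KIM-1, and Lcn2 the iron-siderophore carrier NGAL, and both proteins are measured in urine as signs of acute tubular injury. Krt18 and Krt20 are epithelial keratins, Sox9 is a transcription factor of regenerating tubule cells, Hbegf is a membrane-anchored ligand of the EGF receptor, Clu and Spp1 encode the secreted proteins clusterin and osteopontin, Timp1 encodes an inhibitor of matrix metalloproteinases, and Vgf encodes a neuropeptide precursor. Cisplatin forms adducts mostly at adjacent guanines. Damage-seq maps these adducts, and XR-seq maps the short oligomers that nucleotide excision repair cuts out. Reads of both assays were assigned to the transcribed strand (TS) or the non-transcribed strand (NTS), because the stalling of RNA polymerase on a TS adduct starts transcription-coupled repair.

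In mm10 (GRCm38) coordinates the genes lie at chr11:46735080-46779578 (Havcr1, plus strand), chr2:32384633-32388252 (Lcn2, minus strand), chr11:99428403-99438150 (Krt20, minus strand), chr15:102028180-102032027 (Krt18, plus strand), chr14:65968483-65981547 (Clu, plus strand), chr5:104435118-104441050 (Spp1, plus strand), chrX:20870166-20874735 (Timp1, plus strand), chr11:112782224-112787760 (Sox9, plus strand), chr18:36504927-36515805 (Hbegf, minus strand) and chr5:137026392-137033351 (Vgf, plus strand). Timp1 lies within Syn1, which is transcribed from the opposite strand, so reads on the NTS of Timp1 are also reads on the TS of Syn1. The RNA-seq kit did not mark strand, so reads from Timp1 and Syn1 exons cannot be told apart where these overlap. Spp1 overlaps the gene model Gm42793 on its own strand.

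Reads on genes numbered 15619474 to 162270280 per RNA-seq library, 10658675 to 59779770 per XR-seq library and 1571167 to 6441367 per Damage-seq library. The control pairs of lung and of spleen in RNA-seq were far more alike than the 6 other RNA-seq pairs (dispersion index of 2.75 and 2.98, against 39.3 or more). Repeated draws of reads alone would give an index near 1. Each of these control pairs was summed and counted as 1 sample. The Damage-seq pairs, with far fewer reads per library, had indices of 1.43 to 3.11, and each of their libraries was kept as a replicate. The organs had their own marker genes: the summed level of 20 proximal tubule genes was 18057 to 25656 RPKM (reads per kilobase of exon and 1000000 reads on genes) in kidney libraries and 103 to 1359 RPKM elsewhere. In liver, control replicate 1 differed in both directions. It was the lowest liver library in Alb (24189 against 40889 to 47945 RPKM), Apoa1, Ttr and Serpina1a. It was the highest in Cyp2e1 (2772 against 1869 to 2544 RPKM), Cps1, Fgb and Tat. Lung cisplatin libraries held fewer lymphocyte transcripts than lung controls (8 genes summed, 40.5 and 53.8 against 170 and 171 RPKM), and spleen cisplatin libraries held pancreatic enzyme transcripts (10 genes summed, 1281 and 1662 against 6.77 and 7.45 RPKM). The part of these differences in the values below was not tested. In bulk tissue, fewer cells of a type and less RNA per cell cannot be told apart.

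In the kidney, the RNA of 5 of the 10 markers rose after cisplatin: Hbegf, Krt20, Krt18, Sox9 and Vgf. No marker fell. Over all 15471 genes tested in kidney, 2.4% were called higher, 2.65% lower and 5.05% in either direction. A gene was called where edgeR's quasi-likelihood fit, testing for more than 0.4 in log2 fold change, gave an adjusted p under 0.05 (Benjamini-Hochberg). The median log2 fold change of the 10 markers was 1.78, also with Vgf at the bound given below, beside -0.003 for all tested genes. The study describes its replicates as biological, but the labels tie no sample to an animal, so these p-values measure the spread between libraries, which may be partly technical.

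Hbegf had the smallest adjusted p-value of the 10. Its level was 3.35 and 2.89 RPKM in the control kidneys, and 58.4 and 65.2 RPKM in the cisplatin kidneys. Both cisplatin libraries lay far above both controls, a log2 fold change of 4.38 (SE 0.19, adjusted p = 0.00140). This was the only marker besides Krt20 whose call was kept under every alternative fit and without any 1 library.

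The keratins rose together. Krt20, a keratin of the gut and urothelial lining, stood at 0.161 and 0.783 RPKM in control kidneys and at 9.70 and 15.7 RPKM after cisplatin, a log2 fold change of 4.63 (SE 0.66, adjusted p = 0.0208). Krt18, a keratin of simple epithelia, went from 21 and 26.8 RPKM to 63.0 and 77.3 RPKM, a log2 fold change of 1.61 (SE 0.23, adjusted p = 0.0246). Krt8, the partner of Krt18 in the same filament, rose by a log2 fold change of 1.43 (SE 0.20, adjusted p = 0.0243). Control and cisplatin libraries of both genes did not overlap. Without cisplatin replicate 1 or 2, where the lone library left is assumed to vary like the controls, Krt18 had an adjusted p of 0.0680 or 0.0549, and in a fit over all organs 0.272.

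RefSeq promoter sequences (GRCm38.p6) were at hand for 6 of the 10 genes. The 250 bases before the RefSeq start of the keratin genes are shown because these genes moved together in the kidney. Both strands were searched for the AP-1 site TGANTCA, the cAMP response element TGACGTCA, the STAT site TTCNNNGAA, the TEAD site GGAATG, the TATA box TATAAA, and the CArG box, p53 site and NF-kB site, and capitals mark the matches. Krt20 lies on the minus strand (chr11:99438154-99438403) and Krt18 on the plus strand (chr15:102027966-102028215). The RefSeq start of Krt18 lies downstream of the gene start given above, so the end of its sequence falls within the gene as placed there.
Krt20: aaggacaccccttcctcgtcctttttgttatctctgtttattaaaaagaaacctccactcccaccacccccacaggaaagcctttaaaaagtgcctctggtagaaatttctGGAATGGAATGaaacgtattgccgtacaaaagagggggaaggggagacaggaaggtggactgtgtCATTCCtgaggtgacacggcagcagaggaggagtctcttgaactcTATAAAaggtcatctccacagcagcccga
Krt18: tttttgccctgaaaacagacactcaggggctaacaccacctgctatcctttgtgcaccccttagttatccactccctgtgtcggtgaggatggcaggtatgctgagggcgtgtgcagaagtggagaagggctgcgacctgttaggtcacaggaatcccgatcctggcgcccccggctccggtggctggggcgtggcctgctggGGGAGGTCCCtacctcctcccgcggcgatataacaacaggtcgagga

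The Krt20 sequence held 3 TEAD matches, of which 2 overlap by 1 base, and 1 TATA match. The Krt18 sequence held 1 NF-kB match and no TATAAA. Among 32851 promoters of the same length, 12.6% held a TEAD match, 12.4% a TATA match and 7.25% an NF-kB match. A match of letters describes the sequence, and binding was not measured.

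Sox9, active in tubule cells that re-enter a progenitor-like state, was low throughout. Control kidneys had 0.325 and 0.483 RPKM, and cisplatin kidneys had 1.46 and 2.29 RPKM. The cisplatin libraries were both higher, by a log2 fold change of 2.25 (SE 0.40, adjusted p = 0.0411). Without cisplatin replicate 1 or 2 the adjusted p was 0.0771 or 0.123, and in the fit over all organs 0.0670.

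Vgf had no read in either control kidney library and 20 and 46 reads in the cisplatin libraries, or 0.431 and 0.290 RPKM. Against a floor of 3 reads over both control libraries, its level was at least 23.7-fold higher (adjusted p = 0.0281). Without cisplatin replicate 1 the adjusted p was 0.0913, and DESeq2 gave no adjusted p. No read of Vgf was found in any liver library, and lung and spleen libraries held 0 to 14 reads each.

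Havcr1, the best known of these markers, stood at 0.470 and 0.825 RPKM in control kidneys and at 2.35 and 2.36 RPKM after cisplatin. Both cisplatin libraries were above both controls, and the log2 fold change of 1.87 (SE 0.40) missed the threshold (adjusted p = 0.0652). This call depended on the fit. The adjusted p was 0.0377 against a log2 fold change of 0, 0.0419 with DESeq2, 0.0372 in the fit over all organs and 0.000937 with no filter on low counts. Without control replicate 1 or 2 it was 0.0432 or 0.00601, and without cisplatin replicate 1 or 2 it was 0.243 or 0.147.

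The matrix inhibitor Timp1 had 0.233 and 0.491 RPKM in control kidneys and 1.23 and 1.20 RPKM in cisplatin kidneys, on 4 to 57 reads per library. The log2 fold change was 1.69 with a 95% interval from 0.23 to 3.14 (adjusted p = 0.214). Lcn2 went from 1.95 and 1.47 RPKM to 3.08 and 2.76 RPKM (log2 fold change 0.84, 95% interval 0.19 to 1.49, adjusted p = 0.244). The libraries of both genes did not overlap, yet neither passed the test.

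Clu and Spp1 were abundant in the kidney with or without cisplatin. Clu had 138 and 237 RPKM in controls and 152 and 212 RPKM after cisplatin. Spp1 had 1214 and 790 RPKM in controls and 1200 and 1029 RPKM after cisplatin. In both genes the cisplatin values lay within the range of the controls, and the 95% intervals of the log2 fold change were -0.80 to 0.82 for Clu and -0.30 to 0.74 for Spp1.

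**Figure D1:**
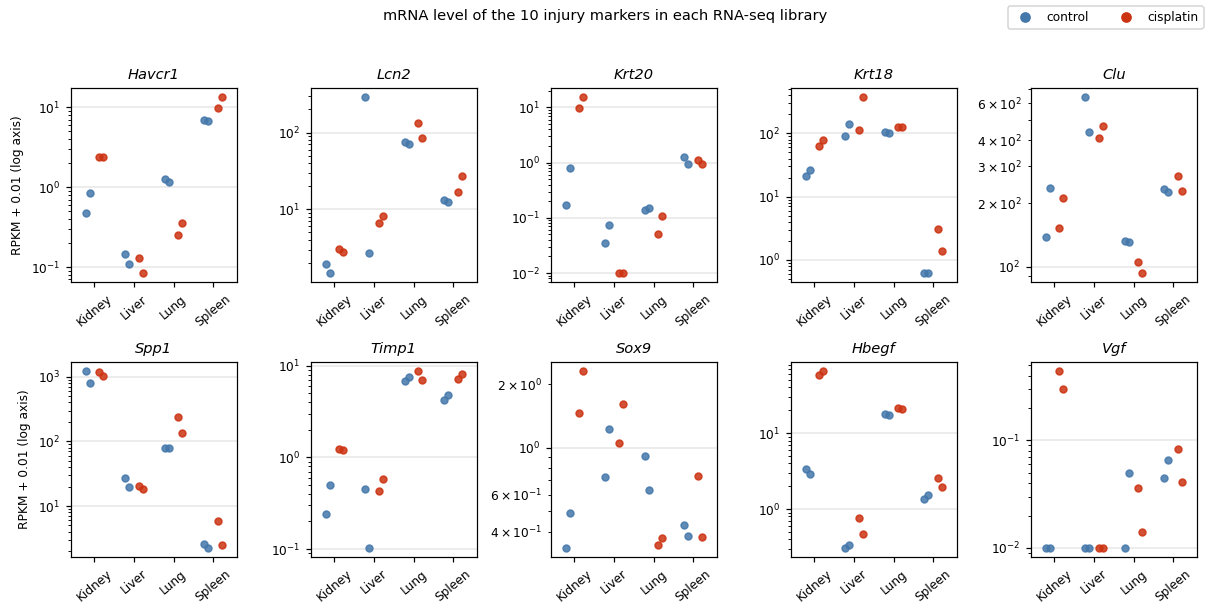
Levels of the 10 markers in each RNA-seq library, as RPKM + 0.01 on a log axis, for control and cisplatin libraries of 4 organs. In kidney, Hbegf goes from 3.35 and 2.89 to 58.4 and 65.2 RPKM, and Spp1 control and cisplatin libraries overlap.

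Genes often named beside these markers were looked at as lists. Of 30 further genes of injured tubule epithelium, 28 were tested in kidney, 6 rose and 0 fell, with a median log2 fold change of 0.49. Gdf15, a stress-induced cytokine of the TGF-beta family, went from 4.14 and 3.29 to 109 and 142 RPKM, and Tnfrsf12a, the receptor of TWEAK, from 6.99 and 8.19 to 258 and 257 RPKM. Their log2 fold changes were 5.15 and 5.14, larger than that of Hbegf. Plaur, the urokinase receptor, rose by 2.91, Sox4, a transcription factor, by 1.43 and Krt8 by 1.43 on the log2 scale.

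Members of the EGF receptor system around Hbegf fell where they were called. Of 16 ligands, receptors and sheddases, 14 were tested, 0 rose and 2 fell, with a median log2 fold change of -0.42. The receptor Erbb4 went from 3.67 and 3.15 to 1.03 and 1.18 RPKM (log2 fold change -1.56, adjusted p = 0.0184), and the sheddase Adam10 from 25.8 and 20.7 to 11 and 10.8 RPKM (log2 fold change -1.03, adjusted p = 0.0455). Among 13 relatives of the markers with counts, 10 were tested and Krt8 was the only one called.

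Transport genes of the nephron were seldom called. Of 20 proximal tubule genes 0 were called, with a median log2 fold change of -0.25, and the 2 of greatest size were the bicarbonate transporter Slc4a4 (-0.92, adjusted p = 0.0725) and the endocytic receptor Cubn (-0.95, adjusted p = 0.183). Of 14 distal nephron genes 1 fell, the potassium channel Kcnj1, from 150 and 165 to 56.7 and 71.1 RPKM (adjusted p = 0.0426).

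Markers of other cells were checked because Lcn2, Timp1 and Spp1 are also made by leukocytes or stromal cells, Krt20 and Krt18 by urothelium, and Vgf by neuroendocrine cells. In kidney, 12 neutrophil genes summed to 2.77 and 4.99 RPKM in controls and 3.12 and 3.40 RPKM after cisplatin, with Camp at 0 in all 4 libraries. The sums of 12 macrophage genes were 127 and 134 RPKM in controls and 134 and 191 RPKM after cisplatin. Those of 10 fibroblast and mesothelial genes were 15.1 and 30.4 against 19.1 and 33.3 RPKM. Those of 6 urothelial genes were 18.7 and 22.2 against 20.5 and 25.1 RPKM, with Krt13 at 0. Those of 8 neuroendocrine genes were 2.23 and 2.47 against 1.99 and 2.26 RPKM. None of these 5 lists had a gene that passed the test in kidney, where 4, 9, 10, 5 and 1 of their genes were tested, in the order given. The lists of hepatocyte, lung epithelium, lymphocyte and pancreatic acinar genes had none either, with 8, 8, 8 and 3 genes tested. Among the 2 genes of greatest size in each of these 9 lists, by log2 fold change, were S100a9 (-0.68) and Ltf (0.53), Cd68 (1.38) and Cd5l (-0.58), Pdgfra (0.75) and Lum (0.53), Upk1a (0.46) and Upk1b (0.36), Syp (-0.19, the only neuroendocrine gene tested), Tat (-4.72) and Cps1 (-2.79), Ager (1.44) and Foxj1 (1.22), Ms4a1 (-1.35), and Ctrb1 (-3.05) and Cpb1 (-0.73). Of 6 genes shared by ductal epithelia such as the collecting duct and bile ducts, 1 rose, the tight junction gene Cldn4, from 17.7 and 21 to 68.0 and 87.1 RPKM (adjusted p = 0.0139).

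In the other 3 organs none of the 10 markers passed the test. In liver 8 of the 10 were tested and 0% of all genes were called by edgeR, against 1287 genes with an unadjusted p under 0.05 and 188 called by DESeq2. In lung 9 were tested and 2.09% of genes were called. In spleen all 10 were tested and 0.181% of genes were called.

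Single markers in these organs had large differences that did not pass. Lcn2 in liver stood at 294 RPKM in control replicate 1, the lowest liver library in Alb and the highest in Cyp2e1. Lcn2 stood at 2.67 RPKM in control replicate 2, with 6.71 and 8.29 RPKM after cisplatin. Its log2 fold change was -4.12 with both controls (adjusted p = 0.481) and 1.42 without control replicate 1. Havcr1 in lung went from 1.25 and 1.14 to 0.243 and 0.349 RPKM (log2 fold change -1.96, adjusted p = 0.101), beside the lower lymphocyte transcripts given above. Spp1 in lung went from 78.5 and 78.2 to 237 and 133 RPKM (1.24 on the log2 scale, adjusted p = 0.206). With no filter on low counts both lung differences were called (adjusted p of 0.0144 for Havcr1 and 0.0189 for Spp1), and with each lung control library as a replicate that of Havcr1 was (0.0180, against 0.0661 for Spp1). Krt18 in spleen went from 0.611 and 0.607 to 3.06 and 1.37 RPKM (1.90 on the log2 scale, adjusted p of 1), beside the pancreatic transcripts given above. Hepatocyte transcripts (8 genes summed) were also highest in spleen cisplatin replicate 1, the library with the most Krt18, at 194 RPKM against 1.49 in cisplatin replicate 2 and 17.3 and 6.48 RPKM in controls. Krt18 in liver stood at 91.2 to 383 RPKM, and the part of either cell type in the spleen values was not tested.

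**Figure D2:**
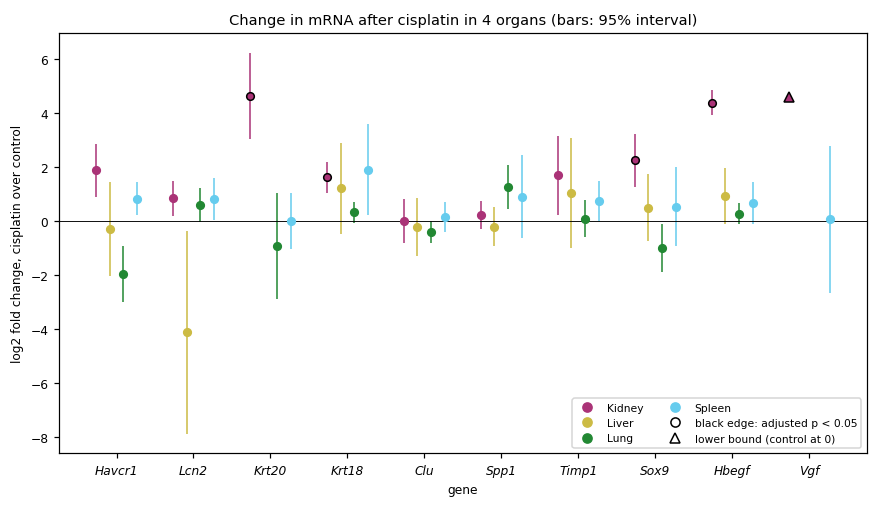
Log2 fold change, cisplatin over control, of each marker in 4 organs, with 95% intervals and black edges for an adjusted p under 0.05. The 5 called genes are all in kidney, Vgf is drawn as a lower bound, and genes that were not tested in an organ have no point.

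The kidney response was then set against that of each other organ in 1 fit over all RNA-seq samples, with the same control kidneys in each contrast. Hbegf differed in all 3: its log2 fold change was larger in kidney by 3.48 than in liver (SE 0.32, adjusted p = 0.00422), by 4.12 than in lung (SE 0.33, adjusted p = 0.000787) and by 3.80 than in spleen (SE 0.33, adjusted p = 0.00220). Liver had 0.298 and 0.324 RPKM of Hbegf in controls and 0.748 and 0.459 RPKM after cisplatin, lung had 17.9 and 17.5 against 21.4 and 20.9 RPKM, and spleen had 1.36 and 1.5 against 2.52 and 1.95 RPKM. The difference from liver had an adjusted p of 0.0553 or 0.0631 without kidney control replicate 1 or 2.

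Havcr1 differed between kidney and lung by 3.82 (SE 0.58, adjusted p = 0.0386), with a rise in kidney beside a lower level in lung. Leaving out any 1 kidney library or either lung cisplatin library raised its adjusted p to 0.0677 to 0.204. No other marker passed: 1, 2 and 1 of 10 were called against liver, lung and spleen, where 0.0733%, 0.12% and 0.304% of 19100 genes were called. Krt20, Krt18, Sox9 and Vgf, like Hbegf called in kidney alone, thus differed by this test from no other organ. For Krt20 and Sox9 the difference from lung had an adjusted p of 0.136 and 0.250.

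Across organs the control levels did not rank kidney first except for Spp1. Havcr1 was highest in spleen, at 6.88 and 6.73 RPKM, above lung, kidney and liver in that order, and no 2 neighbours overlapped in their control libraries. Hbegf was highest in lung, Timp1 in lung and Krt20 in spleen. Control libraries of kidney lay above those of lung and liver for Krt20, and below those of liver and lung for Krt18 and Sox9, 2 genes in which liver and lung overlapped. Clu was highest in liver, at 645 and 435 RPKM, while control kidney and spleen overlapped. Lcn2 ranked first in liver through 1 library only, as above, and lung had 75.5 and 71.4 RPKM.

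For the 5 called markers, the genes with the most alike pattern over the 14 RNA-seq samples were sought among 14883 genes with a mean of at least 1 CPM (1 read in 1000000), by Pearson correlation of log2(CPM + 1). For Hbegf these were Tpbg and Usp27x (r of 0.98 and 0.98), for Krt20 Nptx2 and Utp4 (0.97 and 0.91), for Vgf Nptx2 and Gpr3 (0.97 and 0.94), for Krt18 Cldn3 and Cyp2a5 (0.99 and 0.98), and for Sox9 Tuba1c and Psmd11 (0.92 and 0.86). The samples share organs and treatments, so these values describe patterns over organs as much as over treatment. Vgf itself had 1.28 and 0.863 CPM in the cisplatin kidney libraries and 0 to 0.217 CPM in all others. Its correlations therefore rest on the cisplatin kidney libraries that gave its call.

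Excision repair on the markers was read from XR-seq, as reads in 1000000 per 1000 GG of the strand. For the median of 16502 genes the TS level was 18.4 to 21.9 in the 8 libraries and the NTS level 1.19 to 2.45. The markers differed widely. Hbegf had 18.6 to 80.4 on the TS, above the median gene of the same library in every library, and Havcr1 had 0.021 to 2.20, below it in every library.

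On the TS, 7 of the 10 markers had more XR-seq reads in kidney than in the mean of the 3 other organs: Spp1, Krt20, Krt18, Havcr1, Sox9, Clu and Hbegf. Of 16490 genes, 24.4% were called higher and 9.42% lower in kidney, with a median log2 difference of 0.21 for all genes and 2.02 for the markers. With TMM scaling the median of all genes was -0.01 and the split of all called genes was 2362 higher to 2454 lower, beside 4016 to 1553 here, and the calls of these 7 genes held under every alternative.

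The tubule secretory gene Spp1 had 29.2 and 29.2 on the TS in kidney, and 0 to 3.91 in the 6 other libraries, which did not overlap with kidney (log2 difference 4.81, SE 0.80, adjusted p = 0.000518). Krt20 had 4.49 and 11.5 in kidney and 0 to 0.582 elsewhere (5.26, SE 1.00, adjusted p = 0.00133). Krt18 had 35.3 and 30.4 in kidney, 32.5 and 26.7 in the liver, 4.13 and 2.66 for lung, and 0.313 and 0.577 for spleen (3.14, SE 0.38, adjusted p = 3.95e-05). Kidney and liver overlapped for Krt18, so the difference lay with lung and spleen.

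Sox9 had 31 and 37.1 on the TS in kidney, 27.1 and 37.3 in the liver, 2.49 and 5.42 for lung, and 1.01 and 5.98 for spleen (2.11, SE 0.42, adjusted p = 0.00197). Here too kidney and liver overlapped. Havcr1 had 1.18 and 1.86 in kidney, 2.20 and 1.71 in spleen, 0.262 and 0.109 in liver, and 0.021 and 0.0785 in lung (2.53, SE 0.64, adjusted p = 0.00850). Its spleen and kidney values overlapped, on 52 to 142 reads per library, and these organs were the highest.

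Clu had 51.0 and 33.2 on the TS in kidney, 21.5 and 22.8 in the liver, 16.3 and 17.3 for lung, and 8.28 and 8.64 for spleen (1.52, SE 0.18, adjusted p = 4.24e-05). Hbegf had 68.1 and 80.4 in kidney, 47.7 and 57.7 in the liver, 40.2 and 37.6 for lung, and 18.6 and 21.8 for spleen (1.10, SE 0.14, adjusted p = 7.12e-05). In both genes the 4 organs followed the same order without overlap, kidney, liver, lung and spleen. In both genes this order differs from that of RNA after cisplatin. Clu RNA was highest in liver at 411 and 465 RPKM, and kidney, at 152 and 212 RPKM, lay below spleen at 271 and 228 RPKM. Hbegf RNA was lowest in liver at 0.748 and 0.459 RPKM, while its TS in liver still held 1890 and 1823 XR-seq reads.

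Lcn2, Timp1 and Vgf were not called on the TS. Lcn2 had 41.9 and 43.8 in liver and no read in kidney replicate 1, with 2.78 in kidney replicate 2, and 0.467 to 3.03 in lung and spleen. Its adjusted p was 0.252, and without kidney replicate 2, which leaves the kidney library with no read, Lcn2 was called lower in kidney (adjusted p = 0.00193). This liver level stands beside liver RNA of 6.71 and 8.29 RPKM after cisplatin. Timp1 had 11.1 and 5.13 in kidney and 0.762 to 5.0 elsewhere (1.94, SE 0.71, adjusted p = 0.0525, and 0.0142 without kidney replicate 2). Vgf had 0 and 5.46 in kidney, where 1 library gave no TS read and the other 124.

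**Figure D3:**
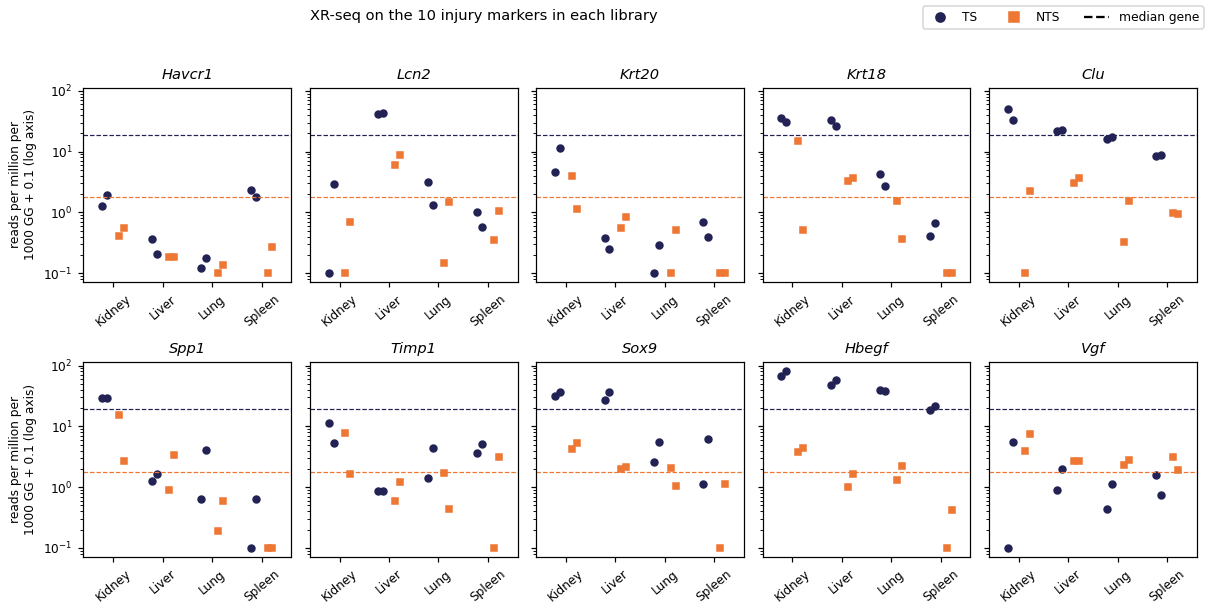
XR-seq level of each marker on the TS and NTS in each of 8 libraries, in reads in 1000000 per 1000 GG, with 0.1 added, on a log axis. Dashed lines mark the median gene, at 18.98 (TS) and 1.68 (NTS). Hbegf lies above the TS line in 7 of 8 libraries and just below it in spleen replicate 1 (18.6), and Havcr1 lies below it in all 8.

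On the NTS, Krt18, Spp1 and Hbegf were called higher in kidney, 3 of the 10 markers, where 15% of 16465 genes were called higher. With TMM scaling none of the 3 passed (adjusted p of 0.109, 0.0678 and 0.139). NTS reads were few and uneven: Krt18 had 94 reads in kidney replicate 1 and 4 in replicate 2, Spp1 54 and 14, and Hbegf 61 and 108. Without kidney replicate 1, the adjusted p was 0.757 for Krt18 and 0.208 for Spp1. Leaving out either liver or either lung library took the call of all 3 genes away (adjusted p of 0.0535 to 0.133), and leaving out either spleen library took away those of Krt18 and Spp1 (0.0507 to 0.10).

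The strands were compared per GG over the 4 organs. In XR-seq, 6 of the 10 markers were called higher on the TS and Vgf on the NTS, where 68.7% of 16502 genes were higher on the TS and 9.41% on the NTS. The median log2 ratio was 2.35 for the markers and 2.70 for all genes. Hbegf had 10067 TS reads and 428 NTS reads over the 8 libraries, so that 95.9% lay on the TS (95% Wilson interval 95.5 to 96.3), which carries 45.5% of its GG. Its log2 ratio per GG was 5.25 (SE 0.35, adjusted p = 7.59e-07).

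Clu had 91.9% of reads on the TS (91.2 to 92.5) and Sox9 91.1% (89.9 to 92.1), with log2 ratios per GG of 4.27 (SE 0.69, adjusted p = 0.000337) and 2.81 (SE 0.48, adjusted p = 0.000483). Krt18 had 85.4% (83.6 to 87.0), Havcr1 83.6% (80.2 to 86.6) and Spp1 77.4% (73.4 to 80.9), with adjusted p of 0.00568, 0.0179 and 0.0466. Of these, Spp1 was the least firm: it lost its call without kidney replicate 2, either liver or lung library or spleen replicate 2 (adjusted p of 0.0686 to 1), and with genes of any length and GG count in the fit (0.0533). Havcr1 lost it without either liver library (0.0941 and 0.0613) and Krt18 without spleen replicate 2 (0.0514). These intervals cover the counting of reads only.

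Vgf was the exception, with 305 TS reads and 490 NTS reads, or 38.4% on the TS (35.0 to 41.8), which carries 58.9% of its GG. Its log2 ratio per GG was -1.79 (SE 0.72, adjusted p = 0.0468). The level was lower on the TS than on the NTS in each library, from 0 against 3.83 in kidney replicate 1 to 5.46 against 7.31 in kidney replicate 2. The call was lost without any 1 of the liver, lung or spleen libraries (adjusted p of 0.0721 to 0.142), and also without the correction for GG (0.137). Lcn2, Timp1 and Krt20 were not called, at 82.3%, 73.0% and 68.2% on the TS. For Lcn2, liver gave 1253 of the 1357 TS reads.

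Damage-seq showed much smaller differences. The level per GG for the median gene was 5.36 to 8.17 on the TS and 8.12 to 10.5 on the NTS, and single markers had 1 to 123 reads per strand and library. Adducts on the TS of Havcr1 were fewer in kidney than in the mean of the other organs, 5.13 and 5.48 per GG unit against 4.63 to 9.66, a log2 difference of -0.53 (SE 0.21, adjusted p = 0.0395), and the call was lost without any 1 of 6 libraries, both of kidney, both of liver, lung replicate 1 and spleen replicate 1 (adjusted p of 0.0564 to 0.238). It was the only marker called on the TS, where 28.4% of genes were called higher in kidney and 1.65% lower, with a median log2 difference of 0.40 for all genes, which TMM scaling moved to 0.06.

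On the NTS, 4 markers carried more adducts in kidney: Lcn2 (log2 difference 1.06, SE 0.34, adjusted p = 0.0118), Krt18 (1.05, SE 0.39, adjusted p = 0.0361), Vgf (0.97, SE 0.27, adjusted p = 0.00366) and Hbegf (0.77, SE 0.21, adjusted p = 0.00364). Of all genes 22.8% were called higher, with a median of 0.24. Hbegf had 17.6 and 19.0 in kidney and 9.38 to 13.1 elsewhere, and Lcn2 had 17.6 and 19.3 in kidney and 5.16 to 15.5 elsewhere, without overlap. For Krt18, kidney replicate 2 (9.0) lay within the range of the other organs (4.26 to 10.4). DESeq2 did not call Vgf or Hbegf and gave no adjusted p for Lcn2 and Krt18, and with TMM scaling Lcn2 and Krt18 had an adjusted p of 0.0549 and 0.12. Without 1 kidney library the adjusted p was 0.0577 to 0.775 for each of them in turn (replicate 1 for Krt18 and Vgf, replicate 2 for Hbegf, either for Lcn2). Lcn2 also lost its call without liver replicate 1 (0.0569), and Krt18 without either liver library or spleen replicate 1 (0.0576 to 0.0645).

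Between strands, adducts per GG were lower on the TS for Clu (log2 ratio -0.81, SE 0.17, adjusted p = 1.94e-05) and Hbegf (-0.70, SE 0.18, adjusted p = 0.000447), and higher on the TS for Vgf (0.49, SE 0.17, adjusted p = 0.0117). Of all genes 44.9% were lower and 2.81% higher on the TS, with a median log2 ratio of -0.36. Clu had 226 TS and 403 NTS reads over the 8 libraries, Hbegf 202 and 399, and Vgf 437 and 258. The calls of Clu and Hbegf held under every alternative, and that of Vgf was lost without lung replicate 2 (adjusted p = 0.0877) or spleen replicate 2 (0.0581). The 7 other markers were not called, with 138 to 1126 reads each on both strands.

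**Figure D4:**
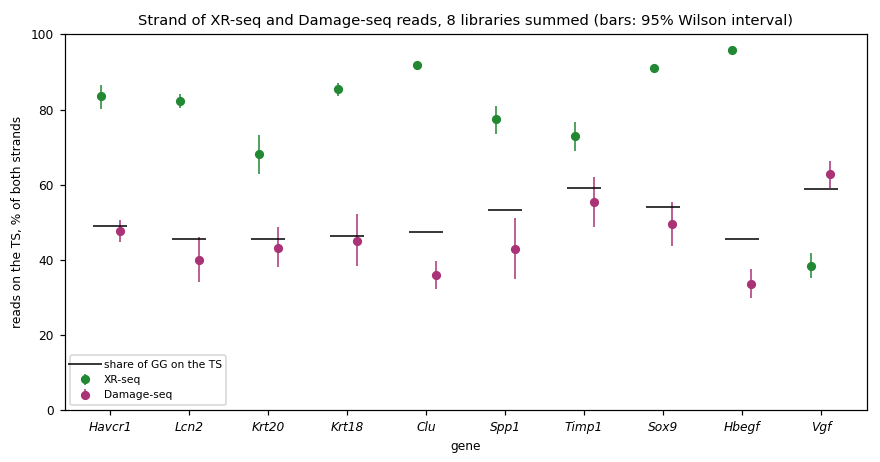
Share of XR-seq and Damage-seq reads on the TS for each marker, in % of both strands over 8 libraries, with 95% Wilson intervals, beside the share of GG on the TS. XR-seq shares exceed the GG share in 9 of 10 genes, up to 95.9% in Hbegf, and Vgf alone lies below it at 38.4%.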

How the data were processed

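The authors trimmed Damage-seq and XR-seq reads with cutadapt, aligned them to mm10 with BWA and removed duplicates with Picard, and they aligned RNA-seq reads with STAR and counted them with featureCounts. Aligner versions are not given in the sources used here. The deposited values are unnormalised counts, for each gene the reads of each strand (Damage-seq and XR-seq) or of both together (RNA-seq). From 1 line without an identifier per Damage-seq and XR-seq file nothing was taken. The genes and gene lists were chosen with earlier results of these data known. All 10 markers were described, and of each list up to 6 called genes, or where none was called the 2 of greatest size, were named, as were the 2 genes most alike in pattern to each marker called in kidney. The values of 2 genes that this rule names are not reported here.

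Gene positions, exon lengths and GG per strand came from GENCODE M21 on GRCm38 (25041 of 25059 genes matched). Damage-seq and XR-seq tests used 16502 genes under 100000 bp with at least 10 GG on the TS or the NTS. These genes had at least 20 reads in each assay, RNA-seq included, and counts were scaled by reads on genes without TMM. RNA-seq was fitted per organ with TMM after the default filter on low counts. All tests were edgeR 4.0.16 quasi-likelihood fits in R 4.3.3 over all genes, called at an adjusted p-value under 0.05, against a log2 fold change of 0.4 for RNA-seq within an organ and of 0 otherwise. Standard errors are the log2 value over the root of F and are left out where a group had no read. Intervals use the total degrees of freedom of the gene in edgeR, residual plus prior. With 1 summed control in lung and spleen, the control is assumed to vary like the cisplatin libraries. Python 3.11.15, numpy 2.4.6, pandas 2.3.3 and scipy 1.17.1 were used for the rest. The RNA-seq fits of kidney and liver, the kidney response minus that of liver, the TS contrasts between organs and the strand tests were tried on simulated data. A fit of 1 control against 2 treated samples was simulated with the spread of kidney. The NTS contrasts between organs and the kidney response against lung and spleen were not simulated. DESeq2 1.42.0, TMM, other filters, a replicate block, a fit over all organs and leaving out each library were alternatives.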

Additional observations from a re-analysis of the deposited data

Results flagged for a closer look

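In 4 cases the response of a marker to cisplatin differed between organs by a test of the difference itself. The log2 fold change of Hbegf exceeded that in liver by 3.48, that in lung by 4.12 and that in spleen by 3.80, and it was above 0 in each of the 4 organs. The log2 fold change of Havcr1 exceeded that in lung by 3.82, with both cisplatin libraries above both controls in kidney and below them in lung. The 4 values share the same kidney libraries. They were not equally firm. The call of Havcr1 was lost without any single kidney library or either lung cisplatin library. That of Hbegf against liver was lost without either kidney control library. With at most 2 samples per group, no single library could be tested against its group.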

How the results depend on the processing

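Calls of markers in kidney RNA-seq numbered 5, and 2 to 6 when 1 library was left out. All genes called there numbered 782, against 1896 with no filter on low counts, 1711 against a log2 fold change of 0, and 123 to 2005 without 1 library. In liver 0 genes were called, against 155 with no filter, 188 with DESeq2, 518 in a fit over all organs and 22 to 1840 without 1 library, of which 0 to 2 were markers. In lung 381 genes were called, against 1089 with no filter (2 of them markers), 804 against a log2 fold change of 0, 1606 with each library as a replicate (1 marker), 70 in a fit over all organs and 0 to 339 without 1 library. In spleen 32 were called, against 58 with no filter, 85 with DESeq2, 62 with each library as a replicate and 22 to 97 without 1 library.

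For the kidney response minus that of liver, lung and spleen, 14, 23 and 58 genes were called. With each library as a replicate these counts were 127, 280 and 501, with no filter 78, 160 and 181, and with DESeq2 210, 253 and 463. Markers among them numbered 1, 2 and 1, against 1, 4 and 2 with each library as a replicate, 3, 4 and 2 with no filter, and 2, 4 and 2 with DESeq2. Without 1 library the counts were 1 to 87, 5 to 21 and 16 to 112 genes, with 0 to 2 markers against liver and 1 to 2 against lung.

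For XR-seq NTS in kidney against the other organs, 2880 genes and 3 markers were called, against 1783 and 0 with TMM, and 1698 to 5824 and 0 to 5 without 1 library. For Damage-seq TS these were 4961 and 1, against 1334 genes with DESeq2, and 2567 to 5408 and 0 to 1 without 1 library. For Damage-seq NTS they were 4143 and 4, against 1138 and 0 with DESeq2, which gave no adjusted p for 2 of the 4, and 1521 to 4617 and 1 to 4 without 1 library. XR-seq TS against NTS had 7 markers called, and 4 to 8 without 1 library. The cause of these moves was not tested, beyond the fewer samples of the fits without a library.

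Of values near 0, Clu in kidney RNA-seq reversed to -0.019 with no filter and ranged from -0.39 to 0.53 without 1 library, and Spp1 from -0.0029 to 0.48. Lcn2 in liver ranged from -5.11 to 1.42. Scaling moved the split of called genes in kidney against other organs: with TMM it was 755 higher to 1028 lower in XR-seq NTS (2470 to 410 here), 1892 to 1457 in Damage-seq TS (4688 to 273) and 1952 to 1449 in Damage-seq NTS (3765 to 378), and with DESeq2 569 to 765 in Damage-seq TS and 597 to 541 in Damage-seq NTS.

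With the replicate number as a block, 3182, 1015, 1914 and 172 genes were called in kidney, liver, lung and spleen, and 294, 764 and 1295 in kidney against liver, lung and spleen, with 2, 4 and 3 markers. Under this block Havcr1 and Lcn2 were called in kidney (adjusted p by edgeR of 9.88e-05 and 0.0411), Havcr1 and Spp1 in lung (2 markers), and XR-seq NTS had 1 marker. The labels tie no numbers to shared animals, and the deviations of same-numbered control and cisplatin libraries correlated at 0.41, 0.29, 0.088 and 0.39 over 14935 genes in kidney, liver, lung and spleen. Lung lay under the 0.1 set for every pair, so the number is not treated as a pairing, although the other 3 organs lay above it. For TS against NTS in 1 library, both strands come from the same library, which the fits already hold as a term.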
